A study of Mus musculus with 47 samples.

Results

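The genes described here are 48 genes of the urea cycle and of amino acid catabolism, chosen by name from the 20320 genes of a mouse liver count table. All 48 were in the table and all passed the expression filter, which kept 16650 genes. The table holds 47 libraries from male and female mice of 3 inbred strains, labelled wild type and without other treatment. The strains are C57BL/6J, the usual laboratory mouse, CAST/EiJ, which descends from wild-caught mice, and NZO/HlLtJ (New Zealand Obese), which is prone to obesity and diabetes. From week 6 the animals ate either a control diet with 10% fat or a diet high in fat and sugar with 44% fat, each with fiber, and liver was collected at week 15. Every group of 1 strain, sex and diet held 4 libraries, apart from CAST/EiJ males on 10% fat, which held 3. The series asks how strain and diet act together in models of type 2 diabetes.

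Amino acids that are not used for protein are stripped of their nitrogen in the liver. Transaminases move the amino group onto glutamate, glutamate dehydrogenase releases it as ammonia, and the urea cycle of periportal hepatocytes turns ammonia and aspartate into urea. Ammonia that escapes is captured as glutamine by glutamine synthetase (Glul) in the hepatocytes around the central vein. The carbon skeletons are broken down by separate routes for each amino acid, and many of these enzymes are known to be set by glucagon, glucocorticoids and protein intake.

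Total counts ran from 21.6 M to 47.8 M per library, with a median of 40.0 M. Levels are CPM, counts scaled by library size with TMM factors, and because they are not corrected for transcript length they are compared between groups and not between genes. Summed over 7 measured of 8 hepatocyte markers, libraries held from 59300 to 169000 CPM. Pancreatic acinar transcripts stood apart in 5 libraries, with the acinar gene Cpa1 at 41.0 to 82.0 CPM against at most 12.1 CPM elsewhere. These were 2 C57BL/6J females on 44% fat, 2 C57BL/6J males on 10% fat and 1 CAST/EiJ female on 44% fat, and 5 of 12 acinar markers were in the table. Their sum reached 495 CPM in C57BL/6J, 457 CPM in CAST/EiJ and 4.04 CPM in NZO/HlLtJ. A clock score, the mean standardized level of Dbp and Ciart minus that of Arntl and Npas2, averaged −0.817 and −0.249 on 10% and 44% fat in C57BL/6J, 0.65 and 0.969 in CAST/EiJ, and −0.61 and 0.138 in NZO/HlLtJ. Dbp and Ciart peak late in the light phase in mouse liver, so the score follows the time of day of the tissue's clock, and its part in the results was tested only by adding it to the model. Exons of 10 of the 48 genes overlap another annotated gene (Aldh4a1, Bckdha, Bhmt, Gls2, Glul, Got2, Mccc1, Nags, Pcca and Sds). The longest overlap of exons was 92 to 488 bases per pair. The use of strand in counting is not given, and Aldh4a1 and Glul have a partner on the same strand. Reads within the shared stretches therefore cannot be told apart from those of the partner. Nothing in the labels says that every library came from its own animal, and the p-values therefore describe the spread between these libraries, which may be partly technical. In whole liver, fewer cells of a type and less RNA per cell cannot be told apart.

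RefSeq start sites (GRCm38.p6) were matched for 37 of the 48 genes. The 250 bases before the start are printed for 5 of them, whose levels carry the diet and strain results below, and capitals mark matches to the motifs searched. Hgd encodes homogentisate dioxygenase of tyrosine breakdown (chr16:37579903-37580152, plus strand), Hal encodes histidase (chr10:93488518-93488767, plus strand), and Got1 encodes the cytosolic aspartate transaminase (chr19:43524606-43524855, minus strand). Aass encodes the first enzyme of lysine breakdown (chr6:23132987-23133236, minus strand) and Oat encodes ornithine transaminase (chr7:132576399-132576648, minus strand).
Hgd: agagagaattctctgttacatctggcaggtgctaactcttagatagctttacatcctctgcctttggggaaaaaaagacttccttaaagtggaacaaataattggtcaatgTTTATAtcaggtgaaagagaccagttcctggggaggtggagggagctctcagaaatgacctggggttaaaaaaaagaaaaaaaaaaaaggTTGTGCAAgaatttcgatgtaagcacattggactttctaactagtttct
Hal: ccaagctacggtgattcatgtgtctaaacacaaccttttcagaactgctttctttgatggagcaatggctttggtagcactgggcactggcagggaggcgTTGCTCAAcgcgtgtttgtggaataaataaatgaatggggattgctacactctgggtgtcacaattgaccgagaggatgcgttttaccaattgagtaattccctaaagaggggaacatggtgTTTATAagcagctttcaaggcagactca
Got1: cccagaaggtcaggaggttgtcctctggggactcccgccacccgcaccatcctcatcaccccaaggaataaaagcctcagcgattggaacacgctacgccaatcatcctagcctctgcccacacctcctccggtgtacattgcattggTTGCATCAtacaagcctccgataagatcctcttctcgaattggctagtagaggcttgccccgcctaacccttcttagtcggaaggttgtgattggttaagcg
Aass: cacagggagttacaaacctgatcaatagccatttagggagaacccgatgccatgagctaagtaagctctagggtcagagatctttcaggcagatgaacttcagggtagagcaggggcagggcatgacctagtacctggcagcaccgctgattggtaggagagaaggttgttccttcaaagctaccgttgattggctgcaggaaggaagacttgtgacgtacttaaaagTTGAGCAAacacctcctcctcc
Oat: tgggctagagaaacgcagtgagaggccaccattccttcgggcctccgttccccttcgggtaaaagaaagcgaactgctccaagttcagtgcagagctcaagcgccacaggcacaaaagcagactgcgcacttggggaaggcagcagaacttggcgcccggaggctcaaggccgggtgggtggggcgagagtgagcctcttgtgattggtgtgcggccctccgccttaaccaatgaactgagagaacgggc

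The motifs were searched on both strands of windows that reach 250 bases before and 50 after each start. A C/EBP motif (TTGCNNAA) was found in 3 of the 37 member genes, Aass, Hal and Hgd, and in 10.8% of all 32851 windows. In Hal it began at −150 and in Aass at −22 from the start, and in Hgd at −49 and again at 15, beyond the printed stretch. The amino acid response element core (TGATGNAA) was found in Got1 alone of the members, at −102, and in 3.97% of all windows. A TATA box (TATAAA) was found in 5 member genes, among them Hal at −28 and Hgd at −139, and in 13.6% of all windows. A STAT motif (TTCNNNGAA) was found in 3, Ivd, Pccb and Prodh, against 8.3% of all windows, and the cyclic AMP response element (TGACGTCA) in 0, against 1.79%. No matches to different motifs shared a base in the members, and the printed Oat stretch held none of these letters.

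In NZO/HlLtJ, 10 of the 48 genes rose on the 44% fat diet and 0 fell, where 5.64% of all tested genes were called in either direction, 3.5% higher and 2.14% lower. A gene was called where its Benjamini-Hochberg adjusted p over all tested genes, from edgeR's quasi-likelihood test, was under 0.05. The 10 were Oat, Gpt2, Asl, Slc25a15, Slc25a13, Hgd, Kmo, Kynu, Bckdhb and Pcca. They hold argininosuccinate lyase of the urea cycle, both of the cycle's mitochondrial carriers, a pair of transaminases and steps of tyrosine, tryptophan and branched-chain amino acid breakdown. The summed hepatocyte markers had NZO/HlLtJ medians of 133000 CPM (110000 to 169000) on 10% fat and 107000 CPM (74800 to 131000) on 44% fat. In the same order of diets, C57BL/6J had 120000 (97500 to 138000) and 112000 CPM (101000 to 127000). CAST/EiJ had 115000 (73800 to 145000) and 86700 CPM (59300 to 135000). The part of these markers in the diet results was not tested. In NZO/HlLtJ the median log2 fold change of the 48 genes was 0.16, against 0.00 over all genes tested, and 32 of the 48 had a positive value. In C57BL/6J 2 genes rose, Bckdhb and Gpt2, and 0 fell, where 0.991% of all genes were called, 0.823% higher and 0.168% lower. In CAST/EiJ 1 gene, Hal, fell and 0 rose, where 0.895% of all genes were called, 0.498% higher and 0.396% lower. The medians of the 48 genes there were 0.14 in C57BL/6J, against 0.01 over all genes, and −0.01 in CAST/EiJ, against 0.00. Of the 48 genes, 41 had a positive value in C57BL/6J and 23 in CAST/EiJ. The share of all genes with a positive value was not computed for any strain.

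**Figure D1:**
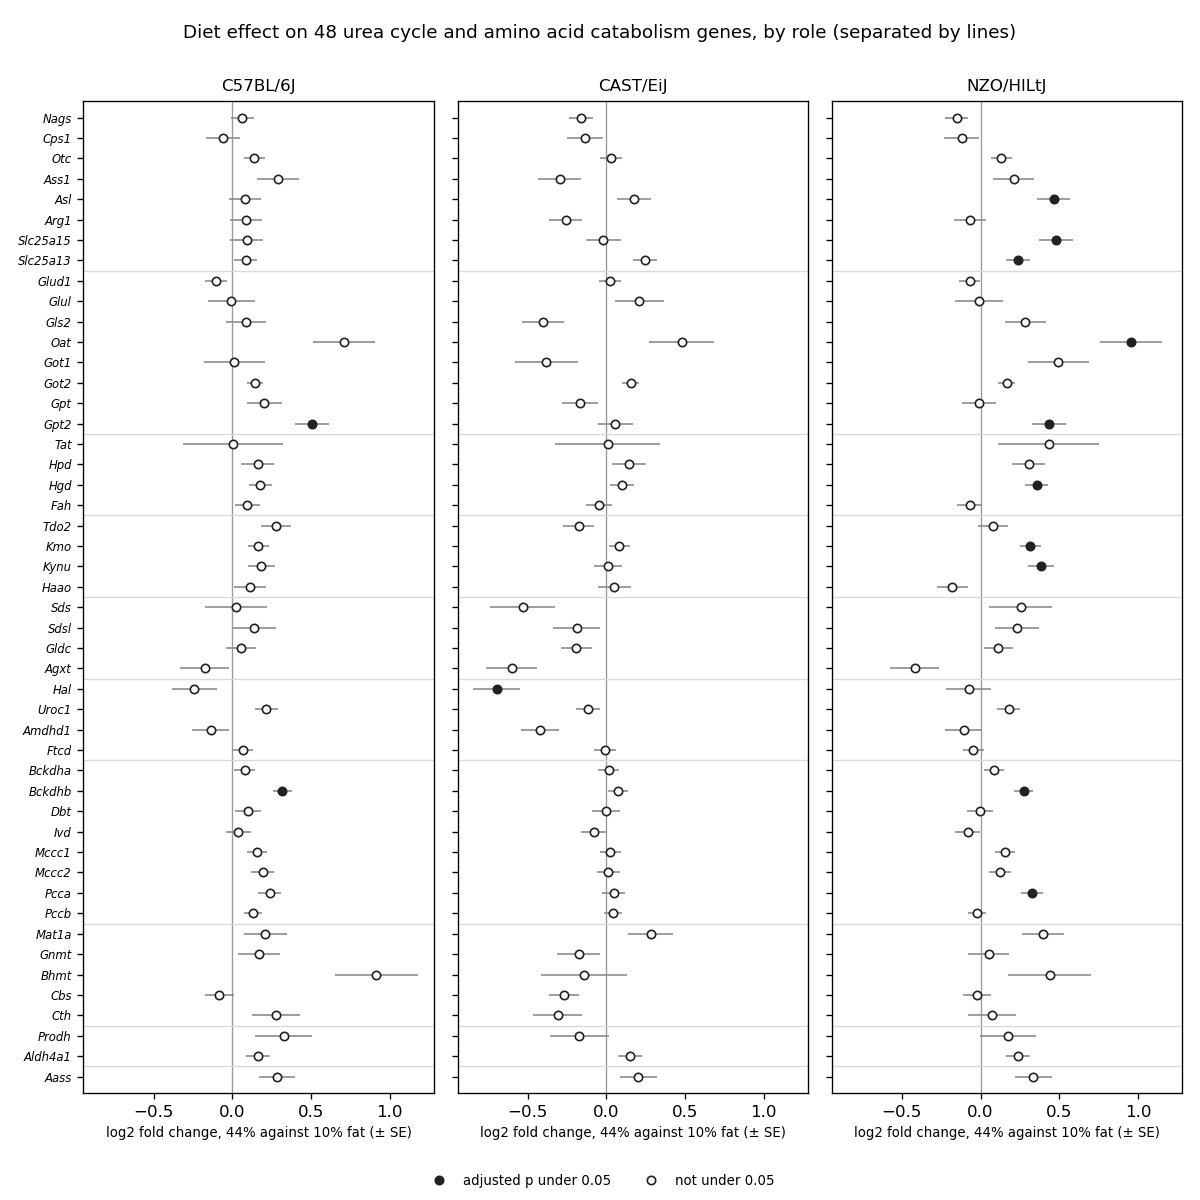
Log2 fold change of each of the 48 genes on 44% against 10% fat, averaged over the sexes, with bars of 1 SE, in 1 panel per strain and ordered by role (urea cycle, glutamate and transaminases, tyrosine, tryptophan, serine and glycine, histidine, branched-chain, methionine, proline, lysine). Filled points have an adjusted p under 0.05: 2 in C57BL/6J, 1 in CAST/EiJ and 10 in NZO/HlLtJ, and the highest NZO/HlLtJ point is Oat at 0.96.

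Within the urea cycle the diet calls in NZO/HlLtJ were argininosuccinate lyase and the carriers. Asl, which splits argininosuccinate into arginine and fumarate (chr5:130011258-130029247, GRCm38), ranged from 289.3 to 514.6 CPM on 10% fat with a median of 335.5, and from 370.2 to 772.0 CPM on 44% fat with a median of 494.8. The 4 males on 44% fat, at 542.1 to 772.0 CPM, lay above all other NZO/HlLtJ libraries. The log2 fold change was 0.46 (SE 0.10, adjusted p 0.00424). Slc25a15, the mitochondrial carrier that exchanges ornithine and citrulline, ranged from 309.8 to 479.1 CPM on 10% fat and from 395.3 to 931.6 CPM on 44% fat, with medians of 366.3 and 448.4 CPM. Its log2 fold change was 0.48 (SE 0.11, adjusted p 0.00438), and 2 males on 44% fat, at 700.7 and 931.6 CPM, stood above the rest while the other ranges overlapped. Slc25a13, the aspartate and glutamate carrier citrin, had a log2 fold change of 0.24 (SE 0.07, adjusted p 0.048). That call was lost in 29 of the 47 fits that each left out 1 library, with an adjusted p of up to 0.123, and with the clock score in the model (0.21, adjusted p 0.118).

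The other enzymes of the cycle were not called in any strain. Nags makes N-acetylglutamate, the activator of Cps1, and had log2 fold changes of 0.06 in C57BL/6J, −0.16 in CAST/EiJ and −0.15 in NZO/HlLtJ, with SEs of 0.07 or 0.08. For Cps1, carbamoyl phosphate synthetase, the values in the same order of strains were −0.06, −0.14 and −0.12 with SEs of 0.11. For Otc, which joins carbamoyl phosphate to ornithine, they were 0.14, 0.03 and 0.13 with SEs of 0.07. For Ass1, which adds aspartate to citrulline, they were 0.29, −0.29 and 0.21 with SEs of 0.13 or 0.14. Arg1, which releases urea, had values of 0.09, −0.26 and −0.07, with SEs of 0.10 or 0.11. Asl itself stood at 0.08 (SE 0.10) in C57BL/6J and 0.17 (SE 0.11) in CAST/EiJ.

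Among the transaminases and enzymes of glutamate, Oat had the highest diet effect in NZO/HlLtJ. Ornithine transaminase turns ornithine into glutamate semialdehyde in mitochondria (chr7:132557475-132576398, GRCm38). On 10% fat NZO/HlLtJ libraries held 354.5 to 519.1 CPM (median 418.3) and on 44% fat 576.2 to 1540 CPM (median 738.9), so that the diets did not overlap. It was the 1 member of 48 whose NZO/HlLtJ ranges were separate by diet, where 0.36% of all tested genes were. In C57BL/6J and CAST/EiJ 0 members were, against 0.042% and 0.144% of all genes. The means were 436 ± 59.3 and 878 ± 353 CPM (SD, n = 8 each), with a log2 fold change of 0.96 (SE 0.20, adjusted p 0.00214). In C57BL/6J Oat ran from 320.5 to 502.9 CPM on 10% fat and from 251.4 to 1107 CPM on 44% fat, and its log2 fold change of 0.71 (SE 0.20) had an adjusted p of 0.0666. In CAST/EiJ the value was 0.48 (SE 0.20, adjusted p 0.314). There the males held 781.7, 824.0 and 828.2 CPM on 10% fat and 1327 to 1860 CPM on 44% fat, while the females of either diet lay between 1028 and 2028 CPM.

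Gpt2, the mitochondrial alanine transaminase, was called in C57BL/6J and in NZO/HlLtJ. In C57BL/6J it held 187.2 to 299.4 CPM (median 221.7) on 10% fat and 225.8 to 428.3 CPM (median 335.9) on 44% fat, a log2 fold change of 0.51 (SE 0.11, adjusted p 0.012). In NZO/HlLtJ it held 313.5 to 700.8 CPM (median 498.8) and 494.7 to 835.1 CPM (median 639.0), a log2 fold change of 0.44 (SE 0.11, adjusted p 0.0104). The ranges of the diets overlapped in each strain. Gpt, the cytosolic form, had log2 fold changes of 0.20 and −0.01 in these strains, with SEs of 0.11. Glul, which captures ammonia as glutamine, stood at −0.01 in each of them with an SE of 0.15, and Glud1, glutamate dehydrogenase, at −0.10 and −0.07 with SEs of 0.07. Got2, the mitochondrial aspartate transaminase, had an adjusted p of 0.0525 in NZO/HlLtJ at a log2 fold change of 0.17 (SE 0.05).

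Of the 4 tyrosine genes, Hgd rose in NZO/HlLtJ, and of the 4 tryptophan genes Kmo and Kynu. Hgd held 397.2 to 600.2 CPM (median 472.8) on 10% fat and 510.6 to 763.1 CPM (median 597.6) on 44% fat, a log2 fold change of 0.36 (SE 0.07, adjusted p 0.00197). Kmo, kynurenine monooxygenase, held 200.3 to 316.3 CPM (median 259.0) and 269.8 to 420.8 CPM (median 297.0), a log2 fold change of 0.32 (SE 0.06, adjusted p 0.00168). In females Kmo held 269.8 to 287.7 CPM on 44% fat against 200.3 to 241.4 CPM on 10% fat, without overlap, and in males 306.4 to 420.8 against 276.6 to 316.3 CPM, with overlap. Kynu, kynureninase, had a log2 fold change of 0.38 (SE 0.08, adjusted p 0.00358). Tdo2, the enzyme that opens the tryptophan ring, had a value of 0.08 (SE 0.10), and Hpd, which makes homogentisate, 0.30 (SE 0.10, adjusted p 0.0745).

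Of the 8 genes of branched-chain amino acid and propionyl-CoA breakdown, Bckdhb was called in 2 strains and Pcca in 1. Bckdhb encodes the beta subunit of the E1 component of branched-chain ketoacid dehydrogenase (chr9:83925145-84124240, GRCm38). In C57BL/6J it held 36.25 to 47.43 CPM (median 38.81) on 10% fat and 38.82 to 54.69 CPM (median 50.82) on 44% fat, a log2 fold change of 0.32 (SE 0.06, adjusted p 0.00678). In NZO/HlLtJ it held 76.86 to 94.0 CPM (median 81.69) and 90.08 to 113.9 CPM (median 99.73), a log2 fold change of 0.27 (SE 0.06, adjusted p 0.0053). In CAST/EiJ the diet value was 0.07 (SE 0.07). The alpha subunit Bckdha stood at 0.08 in C57BL/6J, 0.01 in CAST/EiJ and 0.08 in NZO/HlLtJ with SEs of 0.07, and the E2 gene Dbt was called in no strain. Pcca, the alpha subunit of propionyl-CoA carboxylase, rose in NZO/HlLtJ by 0.33 on the log2 scale (SE 0.07, adjusted p 0.00336), and its partner Pccb stood at −0.02 (SE 0.06).

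Hal, the first enzyme of histidine breakdown, was the single call in CAST/EiJ. It held 220.9 to 577.7 CPM (median 358.3) on 10% fat and 177.2 to 349.4 CPM (median 213.7) on 44% fat, so that the ranges overlapped. The log2 fold change was −0.70 (SE 0.15, adjusted p 0.0142), and without CAST/EiJ male replicate 1 on 10% fat the adjusted p was 0.0769. In C57BL/6J and NZO/HlLtJ the values were −0.24 (SE 0.14) and −0.07 (SE 0.14). Amdhd1, which acts later in the same pathway, lies 4033 bases beyond Hal on chromosome 10, and stood at −0.42 (SE 0.12, adjusted p 0.0855) in CAST/EiJ. Agxt, which clears glyoxylate in peroxisomes, stood at −0.60 (SE 0.16, adjusted p 0.0611) there. In the groups for methionine, proline, lysine, and serine and glycine, 0 genes were called by diet in any strain. Their smallest adjusted p values in NZO/HlLtJ were 0.0769 for Mat1a, 0.0539 for Aldh4a1, 0.0782 for Aass and 0.11 for Agxt.

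**Figure D2:**
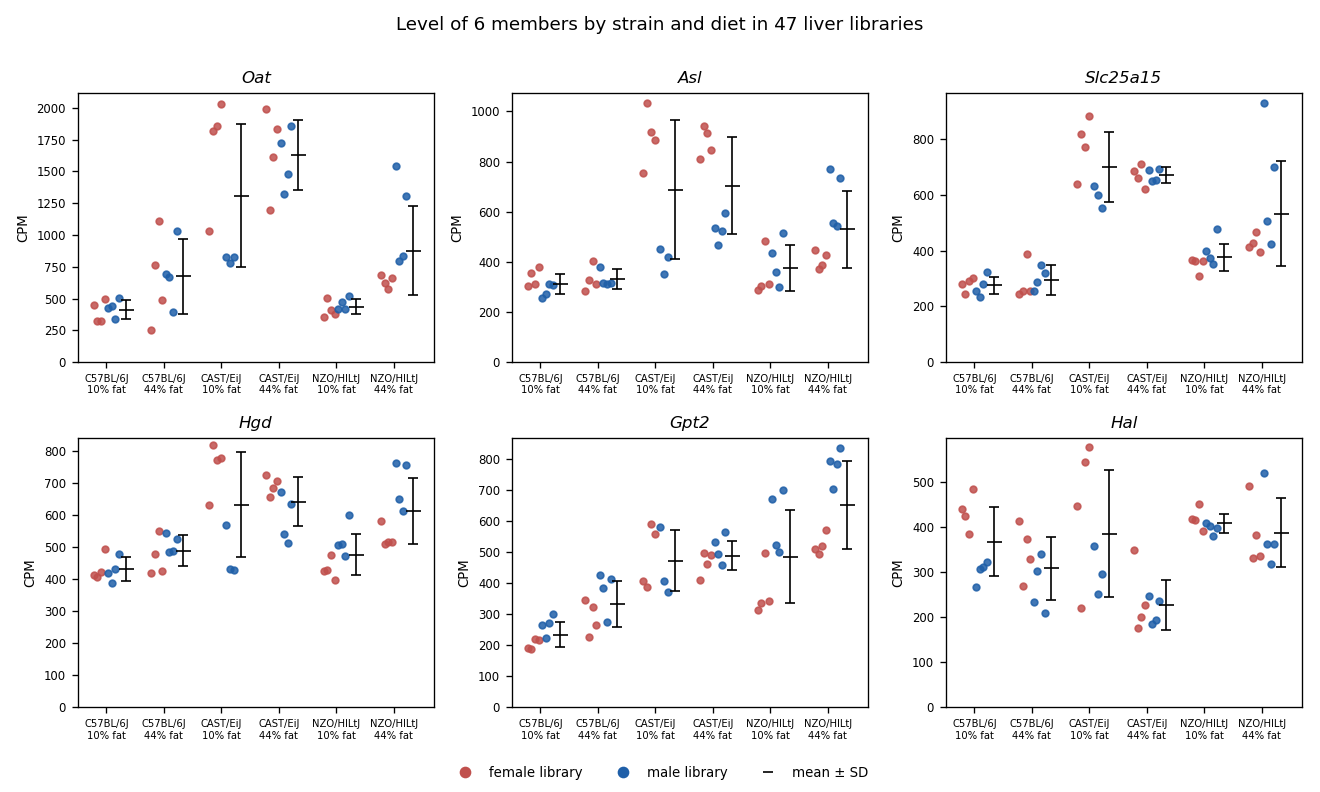
CPM of 6 genes in each of the 47 libraries by strain and diet, with females and males in different colours and the mean ± SD beside each group, on linear axes from 0. Oat is separate by diet in NZO/HlLtJ (354.5 to 519.1 against 576.2 to 1540 CPM), and Hal is lower on 44% fat in CAST/EiJ with overlapping ranges.

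A call in 1 strain and not in another was not itself a strain difference here. The joint test for a diet effect of unequal size in the 3 strains called 0 of the 48 genes with edgeR and 0 with DESeq2, with 16 of them at an unadjusted p under 0.05, where 0.048% of all genes were called. The smallest adjusted p was 0.186, for Gls2, the liver glutaminase. Its diet values were 0.09 in C57BL/6J, −0.40 in CAST/EiJ and 0.28 in NZO/HlLtJ, each with an SE of 0.13. In simulated counts this joint test recovered 62.7% of 1.5-fold and 7.46% of 1.25-fold planted differences. The simulation gave more calls, among them 42 at 1.5-fold and 61 at 2-fold, than the 8 genes called here. Its adjusted threshold was therefore looser, so recovery in these data is likely lower and differences of either size may be missed. Likewise the test of whether the diet effect differed between the sexes called 0 of 48 (7 at an unadjusted p under 0.05), where 0.012% of all genes were called. Asl had the smallest adjusted p there, 0.745, at a male minus female difference of diet effects of 0.37 (SE 0.12). Taken by sex, NZO/HlLtJ males had 5 diet calls among the 48 (Asl, Oat, Slc25a15, Hgd and Bckdhb, all higher, where 2.68% of all genes were called and 1.56% were higher). NZO/HlLtJ females had 1 (Pcca, higher, where 0.486% were called and 0.45% were higher). Within each sex of NZO/HlLtJ, part of the libraries of each diet fell in a block of sample identifiers without the other diet. Diet and block therefore cannot be fully told apart within a sex, and these counts by sex were not refitted.

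The diet counts in C57BL/6J and CAST/EiJ moved with single libraries and with the acinar libraries. The C57BL/6J count was 5 without female replicate 1 on 44% fat and 6 without male replicate 3 on 44% fat, and 0 without the 5 libraries with acinar transcripts (log2 fold change 0.31 with an adjusted p of 0.0841 for Bckdhb, and 0.47 with 0.104 for Gpt2). The CAST/EiJ count was 4 without its female replicate 1 on 44% fat, 3 without female replicate 2 on 10% fat, 0 without male replicate 1 on 10% fat, 2 without NZO/HlLtJ male replicate 4 on 10% fat, and 2 without the acinar libraries. The NZO/HlLtJ count stayed between 9 and 14 when any 1 library was left out. With the clock score in the model it was 10, of which 9 were shared, with Slc25a13 lost and Gldc gained. The 5 acinar libraries were all of the other strains, so leaving them out removed no NZO/HlLtJ library, and the same 10 genes were called. These 10 were also called with the identifier run as a covariate, that is, which of 3 blocks of successive sample identifiers a library falls in. In the first run alone, with 2 libraries per group, it was 0, with 13 genes at an unadjusted p under 0.05. The other runs held 1 sex per diet of NZO/HlLtJ, so no diet value within them was computed.

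Genes of neighbouring function were counted from lists of their own. Of 50 tested enzymes of amino acid breakdown outside the 48, 9 rose and 0 fell on 44% fat in NZO/HlLtJ, where 3.5% of all genes rose and 2.14% fell. In C57BL/6J 1 rose (0.823% of all genes) and in CAST/EiJ 0 were called (0.895% of all genes). The smallest p values in NZO/HlLtJ were for Suox (sulfite oxidase, log2 fold change 0.43, SE 0.08), Sardh (sarcosine dehydrogenase, 0.38, SE 0.09) and Gcdh (glutaryl-CoA dehydrogenase, 0.28, SE 0.07). The 1 gene in C57BL/6J was Agxt2, a mitochondrial aminotransferase, at 0.58 (SE 0.08, adjusted p 1.68e-05). Of 18 amino acid transporters, 3 rose and 1 fell in NZO/HlLtJ, with Slc7a2, a carrier of cationic amino acids, at 0.66 (SE 0.16, adjusted p 0.00766). In the other strains 0 transporters were called. Of 14 regulators of amino acid breakdown, 8 genes responsive to cyclic AMP and glucocorticoids and 11 of the amino acid deprivation response, 0 were called by diet in any strain. Of all genes, 0.991% were called in C57BL/6J, 0.895% in CAST/EiJ and 5.64% in NZO/HlLtJ. For lists this short, such shares could also give 0. Of 9 pericentral genes, Rhbg, an ammonium transporter, rose by 0.64 in C57BL/6J, 0.61 in CAST/EiJ and 0.76 in NZO/HlLtJ on the log2 scale (SEs 0.14, 0.15 and 0.13), and Gulo, of ascorbate synthesis, rose by 0.38 in CAST/EiJ (SE 0.10, adjusted p 0.0422). Of 6 periportal genes, Alb fell in CAST/EiJ and NZO/HlLtJ by 0.36 in each, and Ctsc fell in NZO/HlLtJ by 0.35. Values of the remaining pericentral and periportal genes are not given here, and a shift between the zones was not tested.

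Against C57BL/6J, 38 of the 48 genes differed in NZO/HlLtJ, 33 higher and 5 lower, where 49.1% of all genes were called, 25.5% higher and 23.6% lower. In CAST/EiJ 39 differed, 31 higher and 8 lower, where 67.9% of all genes were called, 32.6% higher and 35.3% lower. The median log2 difference of the 48 genes was 0.25 in NZO/HlLtJ and 0.33 in CAST/EiJ, against −0.00162 and −0.0224 over all genes. These comparisons share the C57BL/6J libraries, so they are given side by side. Between NZO/HlLtJ and CAST/EiJ 30 genes differed, 13 higher in NZO/HlLtJ and 17 lower, where 68.1% of all genes were called, 35.3% higher and 32.8% lower. In no strain comparison were 5 genes called, Bckdha, Cbs, Gls2, Glud1 and Sdsl. Summed over the 48 genes, libraries held 24940 ± 2594 CPM in C57BL/6J on 10% fat (SD, n = 8), 39770 ± 8291 CPM in CAST/EiJ (n = 7) and 33660 ± 5545 CPM in NZO/HlLtJ (n = 8). On 44% fat the sums were 27830 ± 3465, 37090 ± 2976 and 38900 ± 8290 CPM in the same order (n = 8 each). There CAST/EiJ libraries (33310 to 40400 CPM) lay within the range of NZO/HlLtJ (30690 to 55770 CPM). The highest NZO/HlLtJ sum was that of male replicate 1, the library with the fewest counts (21.6 M). On 10% fat the 5 Kupffer cell markers summed to medians of 233 CPM in C57BL/6J (165 to 297), 129 CPM in CAST/EiJ (82.6 to 235) and 202 CPM in NZO/HlLtJ (164 to 308). The 6 T, B and NK cell markers stood at 15.5 CPM (10.4 to 20.1), 6.11 CPM (4.21 to 12.6) and 16.6 CPM (10.4 to 23.7), and the part of these cells in the strain differences was not tested.

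All 8 urea cycle genes were higher in CAST/EiJ than in C57BL/6J, and 7 of 8, all but Slc25a13, were higher in NZO/HlLtJ. Cps1 held 3164 to 5962 CPM (median 3980) in C57BL/6J, 5278 to 11100 CPM (median 7444) in CAST/EiJ and 3797 to 6650 CPM (median 4766) in NZO/HlLtJ. Its log2 difference from C57BL/6J was 0.83 (SE 0.08, adjusted p 3.68e-12) in CAST/EiJ and 0.25 (SE 0.08, adjusted p 0.00627) in NZO/HlLtJ. Asl held 255.9 to 402.0 CPM in C57BL/6J, 350.1 to 1034 CPM in CAST/EiJ and 289.3 to 772.0 CPM in NZO/HlLtJ, with differences of 1.00 and 0.45 (SEs 0.07). Arg1 (chromosome 10) held 614.5 to 1045 CPM in C57BL/6J and 1070 to 1691 CPM in NZO/HlLtJ, with no overlap, and the difference was 0.61 (SE 0.07, adjusted p 3.34e-09). In CAST/EiJ Arg1 held 888.6 to 1707 CPM, a difference of 0.52 (SE 0.07), and NZO/HlLtJ and CAST/EiJ were not called apart (0.09, SE 0.07).

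For Otc, Ass1 and Nags the log2 differences from C57BL/6J were at most 0.40. Otc stood at 0.40 in CAST/EiJ and 0.24 in NZO/HlLtJ (SEs 0.05), Ass1 at 0.31 and 0.27 (SEs 0.09), and Nags at 0.18 and 0.23 (SEs 0.05). The NZO/HlLtJ values of Cps1 and Ass1 had adjusted p values of 0.107 and 0.131 without the acinar libraries, and the CAST/EiJ value of Nags had 0.0715 with the clock score in the model. Between NZO/HlLtJ and CAST/EiJ, Cps1, Asl and Otc were lower in NZO/HlLtJ at −0.58, −0.55 and −0.17 on the log2 scale, while Nags (0.06, SE 0.05) and Ass1 (−0.04, SE 0.09) were not called. The ornithine and citrulline carrier Slc25a15 did not overlap between CAST/EiJ (551.9 to 882.7 CPM) and C57BL/6J (233.5 to 388.0 CPM), with a difference of 1.25 (SE 0.08, adjusted p 9.4e-18). In NZO/HlLtJ it held 309.8 to 931.6 CPM.

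Bckdhb had the highest difference between CAST/EiJ and C57BL/6J among the called members. It held 36.25 to 54.69 CPM in C57BL/6J, 109.2 to 154.0 CPM in CAST/EiJ and 76.86 to 113.9 CPM in NZO/HlLtJ. C57BL/6J lay below all libraries of the other strains, while CAST/EiJ and NZO/HlLtJ overlapped. The log2 difference from C57BL/6J was 1.65 (SE 0.05, adjusted p 6.11e-30) in CAST/EiJ and 1.05 (SE 0.04, adjusted p 6.98e-23) in NZO/HlLtJ. Of the other subunits of the complex, Bckdha stood at 0.02 and −0.02 (SEs 0.05, not called) and Dbt at 0.42 and 0.30 (SEs 0.06, both called). Pccb went the other way, at −0.53 and −0.52 (SEs 0.04), and its CAST/EiJ range of 83.56 to 97.76 CPM lay below the C57BL/6J range of 107.4 to 153.7 CPM. Whether reads of the CAST/EiJ and NZO/HlLtJ alleles were counted as fully as those of C57BL/6J was not tested.

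Among the called genes, Bhmt and Got1 had the highest differences between NZO/HlLtJ and C57BL/6J. Bhmt, which remethylates homocysteine with betaine, held 374.6 to 3848 CPM (median 1596) in C57BL/6J and 2245 to 11860 CPM (median 4881) in NZO/HlLtJ, a log2 difference of 1.66 (SE 0.19, adjusted p 2.36e-09). Got1 held 102.3 to 280.3 CPM (median 154.9) and 186.4 to 879.3 CPM (median 459.6), a difference of 1.53 (SE 0.14, adjusted p 9.09e-12). For each of these genes the ranges of the strains overlapped. Gpt2 stood at 0.99 (SE 0.08), Sds, the serine dehydratase that feeds pyruvate, at 0.95 (SE 0.14), and Tat, tyrosine transaminase, at 0.69 (SE 0.23). Lower in NZO/HlLtJ besides Pccb were Amdhd1 (−0.49, SE 0.08), Glul (−0.31, SE 0.11), Ivd (−0.26, SE 0.06) and Haao (−0.22, SE 0.07). The Glul call was lost with limma on the deposited log2 values (adjusted p 0.0528). Mccc1, at 0.11 (SE 0.04), was called with an adjusted p of 0.0392, and the call was lost in 19 of 47 fits that each left out 1 library and in 8 of 10 other settings, with an adjusted p of up to 0.359. Gldc, the glycine cleavage decarboxylase, held 284.7 to 432.3 CPM in NZO/HlLtJ, above all libraries of C57BL/6J (160.7 to 273.6 CPM) and CAST/EiJ (136.9 to 248.8 CPM).

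In CAST/EiJ the highest differences after Bckdhb were in genes of ornithine, cysteine and lysine metabolism. Oat stood 1.39 above C57BL/6J (SE 0.14), Cth, which makes cysteine from cystathionine, 1.36 (SE 0.11) and Aass 1.27 (SE 0.08). Cth held 314.6 to 858.9 CPM in CAST/EiJ against 133.8 to 301.5 CPM in C57BL/6J, and Aass 510.1 to 803.3 against 193.8 to 392.5 CPM, without overlap in either case. The lowest values were those of Amdhd1 (−1.36, SE 0.09), Agxt (−1.19, SE 0.11), Haao (−0.85, SE 0.07) and Fah (−0.57, SE 0.06). Pccb, at −0.53, and Aldh4a1, of proline breakdown, at −0.32 (SE 0.05), followed. Amdhd1 held 44.35 to 113.1 CPM in CAST/EiJ and 133.1 to 227.3 CPM in C57BL/6J, without overlap, with NZO/HlLtJ between at 94.67 to 167.3 CPM. Its chromosomal neighbour Hal was not called between these strains (−0.21, SE 0.10, adjusted p 0.0735). Agxt held 48.3 to 175.1 CPM in CAST/EiJ and 112.5 to 392.1 CPM in C57BL/6J.

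**Figure D3:**
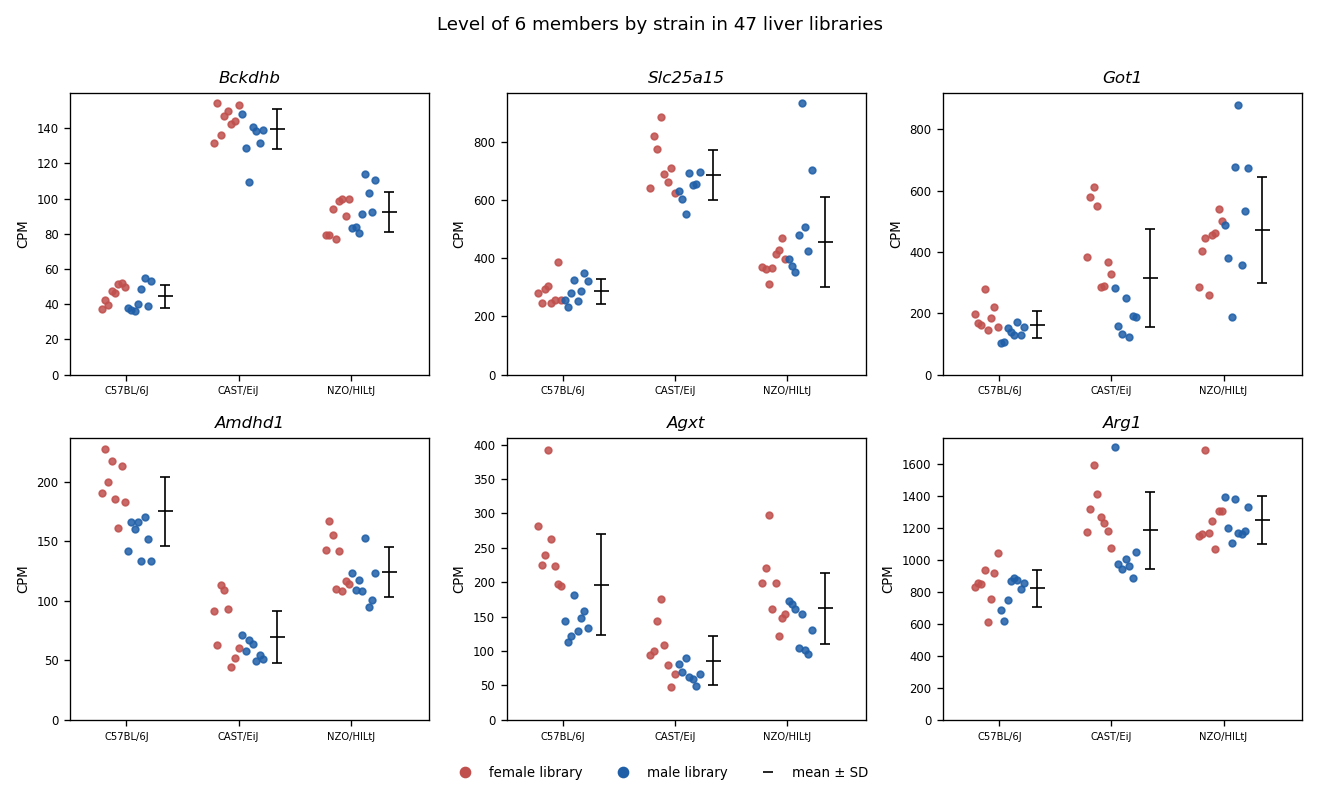
CPM of 6 genes in each of the 47 libraries by strain, with females and males in different colours and the mean ± SD beside each strain, on linear axes from 0. C57BL/6J lies below both other strains for Bckdhb (36.25 to 54.69 CPM), and CAST/EiJ lies below C57BL/6J for Amdhd1 (44.35 to 113.1 against 133.1 to 227.3 CPM).

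Set directly against CAST/EiJ, NZO/HlLtJ was higher in Agxt (0.94, SE 0.11), Gldc (0.88, SE 0.07), Amdhd1 (0.87, SE 0.09), Got1 (0.72, SE 0.14), Bhmt (0.69, SE 0.19) and Aldh4a1 (0.68, SE 0.05). It was lower in Oat (−1.19, SE 0.14), Cth (−0.99, SE 0.11), Aass (−0.84, SE 0.08), Glul (−0.64, SE 0.11), Slc25a15 (−0.61, SE 0.08) and Bckdhb (−0.60, SE 0.05). For Fah, the last enzyme of tyrosine breakdown, the ranges of 380.7 to 591.9 CPM in NZO/HlLtJ and 242.0 to 337.4 CPM in CAST/EiJ did not overlap. For Haao, of the kynurenine pathway, the ranges of 206.0 to 307.5 and 130.1 to 195.4 CPM did not overlap either. In all, 7 of the 48 genes had separate ranges in CAST/EiJ and C57BL/6J, where 12.3% of all tested genes did. Between NZO/HlLtJ and C57BL/6J 3 did (3.78% of all genes), and between NZO/HlLtJ and CAST/EiJ 3 did (11.7%). On the 10% fat diet alone 28 genes were called between NZO/HlLtJ and C57BL/6J (35.5% of all genes) and 39 between CAST/EiJ and C57BL/6J (55.6%). On 44% fat the counts were 26 (34.8%) and 33 (58.3%).

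Averaged over strains and diets, 24 of the 48 genes differed between the sexes, 10 higher in males and 14 higher in females, where 38.6% of all genes were called, 19% higher in males and 19.6% in females. Of the 4 tryptophan genes 3 were higher in males: Tdo2 by 0.69 (SE 0.06), Kynu by 0.54 (SE 0.05) and Kmo by 0.36 (SE 0.04). These 3 were called in each strain taken alone, all higher in males. The fourth, Haao, was not called and stood at −0.09 (SE 0.06, adjusted p 0.258). Bhmt (0.74, SE 0.15), Tat (0.51, SE 0.19) and Gpt2 (0.34, SE 0.06) were also higher in males, and the Tat call was lost without any of 4 single libraries and without the acinar libraries (adjusted p 0.0521). The 4 libraries were males on 10% fat: NZO/HlLtJ replicate 1, C57BL/6J replicate 3 and CAST/EiJ replicate 3, and on 44% fat C57BL/6J replicate 3. Higher in females were Agxt (−0.60, SE 0.09), Mat1a (−0.59, SE 0.08), Got1 (−0.43, SE 0.11), Hpd (−0.42, SE 0.06), Gls2 (−0.32, SE 0.08) and Amdhd1 (−0.30, SE 0.07). Tdo2 held 390.7 to 707.9 CPM in C57BL/6J females and 925.4 to 1244 CPM in males, and 522.9 to 753.6 against 986.3 to 1708 CPM in NZO/HlLtJ, without overlap in either strain. In CAST/EiJ the Tdo2 ranges overlapped, at 702.4 to 1178 CPM in females and 995.6 to 1329 CPM in males. Kmo (224.1 to 261.7 CPM in females, 293.5 to 355.8 CPM in males) and Kynu (135.4 to 196.3 and 198.5 to 249.5 CPM) did not overlap there. The share of all genes with separate ranges of the sexes was not computed for any strain.

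The sex difference of 18 genes varied among the 3 strains. Within CAST/EiJ 22 genes were called, 4 higher in males and 18 higher in females, where 30.3% of all genes were called, 16.1% higher in males and 14.2% in females. Within NZO/HlLtJ 16 were called, 15 higher in males and 1 higher in females, where 17.2% of all genes were called, 7.94% higher in males and 9.31% in females. C57BL/6J had 15, 7 higher in males and 8 higher in females, where 16.8% of all genes were called, 8.1% higher in males and 8.7% in females. The median male against female log2 value of the 48 genes was −0.20 in CAST/EiJ, 0.13 in NZO/HlLtJ and −0.04 in C57BL/6J, against −0.01, −0.02 and −0.01 over all genes. A joint test of whether the sex difference varied among strains called 18 of the 48 genes, where 13.6% of all genes were called. In all 18 the male against female value was higher in NZO/HlLtJ than in CAST/EiJ, and the share of all called genes with that order was not computed. Of the 8 genes with the smallest p, given next, each call held when any 1 library was left out.

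Asl and Mat1a had the smallest p values in that test (adjusted p 2.56e-08 and 8.83e-08). In CAST/EiJ Asl held 752.7 to 1034 CPM in females (median 900.9) and 350.1 to 593.1 CPM in males (median 465.8), without overlap and with a male against female log2 value of −0.94 (SE 0.11). In NZO/HlLtJ it held 289.3 to 483.6 CPM in females and 298.3 to 772.0 CPM in males, a value of 0.45 (SE 0.10, adjusted p 0.00174). In C57BL/6J the value was −0.12 (SE 0.10). Mat1a makes S-adenosylmethionine, the methyl donor of the liver (chr14:41105381-41124412, GRCm38). In CAST/EiJ it held 3104 to 4357 CPM in females (median 3603) and 630.3 to 2319 CPM in males (median 1284), without overlap and with a value of −1.59 (SE 0.15, adjusted p 1.88e-11). In NZO/HlLtJ it held 2710 to 4114 CPM in females and 2218 to 5079 CPM in males, a value of 0.06 (SE 0.14), and in C57BL/6J the value was −0.26 (SE 0.14).

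**Figure D4:**
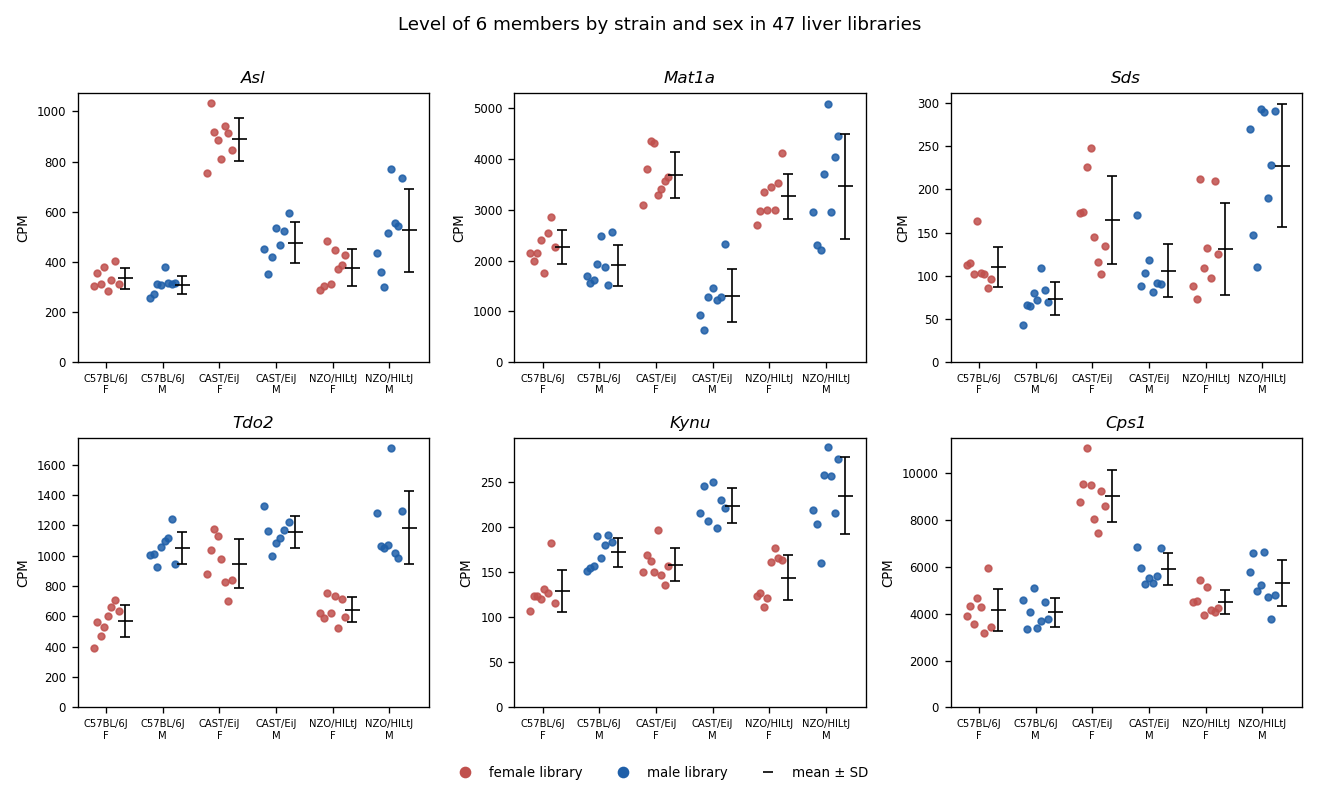
CPM of 6 genes in each of the 47 libraries by strain and sex, with the mean ± SD beside each group, on linear axes from 0. CAST/EiJ females lie above CAST/EiJ males without overlap for Asl, Mat1a and Cps1. Without overlap, males are higher for Tdo2 in C57BL/6J and NZO/HlLtJ and for Kynu in CAST/EiJ.

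Further urea cycle and transaminase genes followed the same order of strains. Cps1 held 7444 to 11100 CPM in CAST/EiJ females and 5278 to 6851 CPM in males, without overlap, a value of −0.60 (SE 0.12), against 0.23 (SE 0.11) in NZO/HlLtJ and −0.04 (SE 0.11) in C57BL/6J. Slc25a13 stood at −0.33 (SE 0.08) in CAST/EiJ, 0.18 (SE 0.07) in NZO/HlLtJ and 0.17 (SE 0.07) in C57BL/6J. Got1 stood at −1.11 (SE 0.21) in CAST/EiJ, with 286.7 to 612.0 CPM in females and 121.6 to 282.2 CPM in males, against 0.31 (SE 0.19) in NZO/HlLtJ and −0.48 (SE 0.20) in C57BL/6J. In the joint test, where 13.6% of all genes were called, 5 of the 8 urea cycle genes were called, Asl, Slc25a13, Cps1, Ass1 and Slc25a15. So were 5 of the 8 genes of glutamate and transamination. Of the 8 branched-chain and propionyl-CoA genes 0 were called there, which a share of 13.6% could also give.

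The tyrosine genes Hgd and Hpd differed in the same way. Hgd held 632.6 to 818.5 CPM in CAST/EiJ females and 427.3 to 671.6 CPM in males, a value of −0.45 (SE 0.08), and 397.2 to 582.6 against 471.0 to 763.1 CPM in NZO/HlLtJ, a value of 0.33 (SE 0.07). In C57BL/6J it stood at 0.06 (SE 0.07). Hpd held 2298 to 3149 CPM in CAST/EiJ females and 1188 to 2069 CPM in males, a value of −0.82 (SE 0.11), against −0.01 (SE 0.10) in NZO/HlLtJ and −0.42 (SE 0.10) in C57BL/6J. Sds changed sign between called strains: −0.58 (SE 0.20) in C57BL/6J, −0.58 (SE 0.21) in CAST/EiJ and 0.80 (SE 0.20) in NZO/HlLtJ. Its NZO/HlLtJ range was 72.5 to 211.8 CPM in females and 110.1 to 293.2 CPM in males. The clock score averaged 1.0 in CAST/EiJ females and 0.615 in males, and −0.577 and 0.105 in NZO/HlLtJ. With it in the model the joint test called 15 of the 48 genes, among them these 8.

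**Figure D5:**
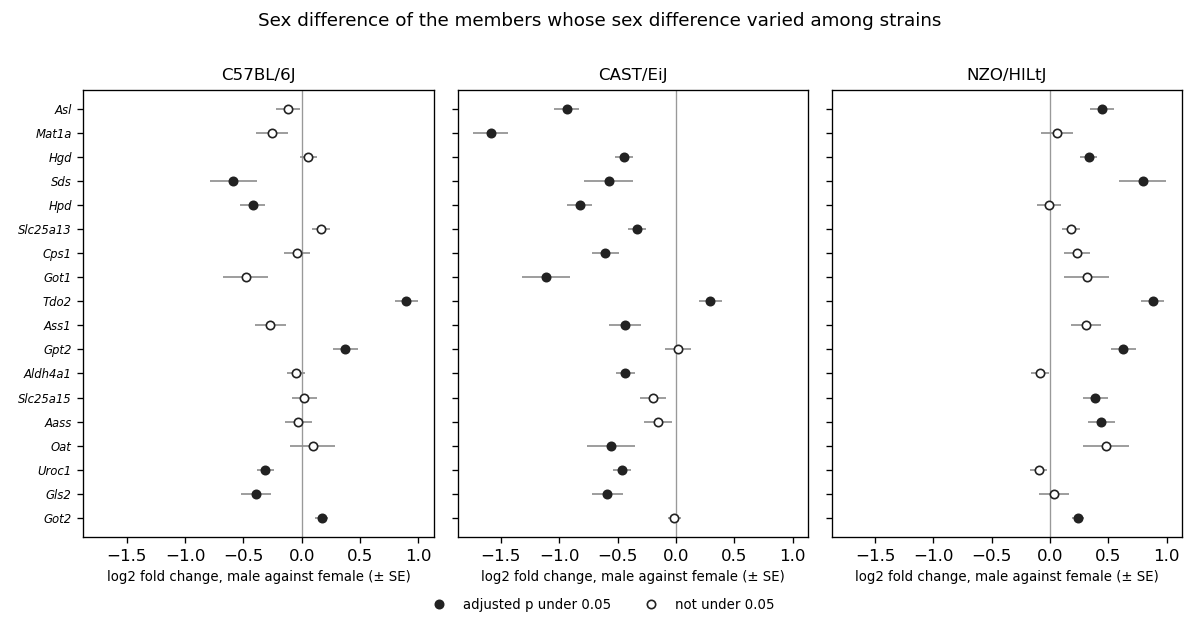
Male against female log2 fold change, averaged over the diets, with bars of 1 SE, for the 18 genes whose sex difference varied among strains, ordered by p in that test. Filled points have an adjusted p under 0.05 within the strain; Asl lies at −0.94 in CAST/EiJ and 0.45 in NZO/HlLtJ.

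Within the 12 groups, levels of the 48 genes were correlated from library to library, with no other gene pairs measured for comparison. As a description with no test, the median correlation of log2 CPM about the group means was 0.376 over 1128 pairs of genes in the 47 libraries, which share depth, composition and any difference in sampling time. Pairs of 1 role had a median of 0.426 and pairs of different roles 0.374. The highest was Fah with Haao at 0.862, followed by the chromosomal neighbours Hal and Amdhd1 at 0.846 and the successive tyrosine enzymes Hpd and Hgd at 0.845. The lowest was Nags with Tat at −0.43. With the clock score, Gldc had the lowest value, −0.673, followed by Kynu at −0.445, and Bckdha had the highest at 0.338.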

How the data were processed

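Liver polyadenylated RNA was sequenced as paired-end reads, per the labels' protocols. The authors deposited a table of expected counts, of which 20.3% were not whole numbers at a tolerance of 1e-06. They also deposited variance-stabilized log2 values. The build was GRCm38, per the submitters' processing notes, which also name DESeq2. Not given in the sources used here are the aligner, the counting tool, its strand setting and the annotation release.

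The counts were rounded to whole numbers and analysed with edgeR 4.0.16 in R 4.3.3. After filterByExpr over the 12 groups and TMM scaling, 1 quasi-likelihood model (robust estimation) with 12 group means was fitted to 47 libraries and 16650 genes, leaving 35 residual degrees of freedom. Diet values are averaged over the sexes, strain values over sexes and diets, and sex values over diets. The SE is the size of the log2 fold change over the root of F. Every adjusted p is Benjamini-Hochberg adjusted over all genes tested and from edgeR unless another tool is named. CPM values are summarised as mean ± SD or as lowest, median and highest.

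The members and all lists were chosen with earlier results of these data known. Named were the 6 urea cycle enzymes, all members called by diet, the 6 highest and 6 lowest called members by strain and by sex, and up to 8 with the smallest p in the tests involving sex. Other genes with separate ranges, near misses and partners of a named enzyme were added after their values were seen.

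In counts simulated for 16222 genes, 37.3%, 79.1% and 93.9% of planted 1.25-fold, 1.5-fold and 2-fold diet changes in NZO/HlLtJ were recovered, with 2.78% of calls false, and 53.7% of 1.5-fold differences of sex effects among strains. The least difference between libraries of a group was a chi-square of 23.1 per gene, so no library was treated as deposited more than once. Alternatives were DESeq2 1.42.0, limma 3.58.1 on the deposited log2 values, other size factors and filters, the identifier run, the clock score, each strain alone, and leaving out the acinar libraries or each library. Sample identifiers fall into 3 consecutive runs of 16, 16 and 15 libraries, treated as possible batches. Promoter sequences are RefSeq's (GRCm38.p6), and gene positions are those of the submitters' gene annotation (GRCm38). Exon overlaps were taken from GENCODE.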

Additional observations from a re-analysis of the deposited data

Results flagged for a closer look

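For 8 genes the male against female difference varied among C57BL/6J, CAST/EiJ and NZO/HlLtJ in the joint test. The adjusted p was 2.56e-08 for Asl, 8.83e-08 for Mat1a, 3.22e-06 for Hgd, 0.000428 for Sds, 0.000476 for Hpd, 0.000534 for Slc25a13, 0.00063 for Cps1 and 0.00139 for Got1. Called values of opposite sign within strains were found for Asl and Hgd, lower in males in CAST/EiJ and higher in males in NZO/HlLtJ, and for Sds.

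Single libraries far from the others of their group were found in 13 of 176 groups of 4 examined over 16 genes, where chance alone flags about 1 in 20. NZO/HlLtJ female replicate 3 on 10% fat was highest of its group for Asl (483.6 CPM), Bckdhb (94.0 CPM) and Gpt2 (496.8 CPM) and lowest for Slc25a15 (309.8 CPM). NZO/HlLtJ female replicate 1 on 44% fat was highest for Cps1 (5127 CPM), Hgd (582.6 CPM) and Hpd (1932 CPM), and replicate 3 of that group was lowest for Bckdhb (90.08 CPM). The other libraries were C57BL/6J male replicate 1 on 44% fat for Asl (378.2 CPM, highest), C57BL/6J male replicate 4 on 10% fat for Kynu (190.4 CPM, highest) and C57BL/6J female replicate 3 on 44% fat for Slc25a15 (388.0 CPM, highest). In CAST/EiJ they were female replicate 1 on 10% fat for Hpd (2298 CPM, lowest) and male replicate 1 on 44% fat for Kmo (319.3 CPM, lowest).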

How the results depend on the processing

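No paired analysis was possible because the labels give no replicate numbers: those used here only follow the order of the samples. Each identifier run alone left 1 library in some C57BL/6J and CAST/EiJ groups, so their diet calls cannot be judged within a run. Of the 48 genes, the count called by diet in C57BL/6J was 0 without the acinar libraries and with the strain fitted alone, and 4 with DESeq2. In CAST/EiJ it was 2 without the acinar libraries, 0 with the strain fitted alone, and 3 with DESeq2. In NZO/HlLtJ it was 0 in run 1 alone, and NZO/HlLtJ against C57BL/6J gave 25 there. Glul, lower in NZO/HlLtJ than in C57BL/6J, stood at 0.0173 in run 1 alone (adjusted p 0.942). These fits hold fewer libraries, except DESeq2, for which the cause was not tested. Leaving out each library in turn gave 2 to 6 calls by diet in C57BL/6J, 0 to 4 in CAST/EiJ and 9 to 14 in NZO/HlLtJ, and 0 to 0 for diet effects that differ among strains or between sexes. It gave 35 to 39 for NZO/HlLtJ against C57BL/6J, 39 to 41 for CAST/EiJ against C57BL/6J, 29 to 33 for NZO/HlLtJ against CAST/EiJ, 21 to 27 for sex and 14 to 25 for sex differences that differ among strains.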
